A study of Rattus norvegicus with 9 samples.

Results

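Splicing factors and spliceosome proteins were followed in the renal outer medulla of 9 salt-sensitive rats. Members were taken from the deposited expression table by name: rows with a single gene name beginning with Srsf, Sf3a, Sf3b, Prpf or Lsm and a digit, or with Hnrnp or Snrp. Of 30315 loci in the table, 81 matched. After leaving out 2 rows with several names (HNRNPH3,Hnrnph3 and Lsm10,Stk40) and 4 lower rows of repeated names (HNRNPAB, Hnrnpc, Hnrnpdl and Lsm6), 75 genes remained. By name they comprise 14 Sm and snRNP-specific proteins, 8 SF3A and SF3B subunits, 13 PRPF proteins, 11 LSm proteins, 11 SR proteins and 18 hnRNPs. Not every row is a known protein gene. RefSeq lists Snrpel1 and Snrpd2l as pseudogenes, and Snrpep2 and Snrpgl2 matched no RefSeq symbol. Of the 75 genes, 71 reached a mean of 1 FPKM over the 9 libraries and were tested. Hnrnpc, Snrpd2l, Snrpep2 and Snrpgl2 did not, with means between 0 and 0.0689 FPKM. FPKM is a fragment count scaled for transcript length and library size.

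Introns are removed from precursor RNA by the spliceosome, which assembles from small nuclear ribonucleoproteins (snRNPs) on each intron. Every snRNP is a small nuclear RNA in a shell of proteins: a ring of Sm proteins, or of LSm proteins on U6 RNA, plus proteins specific to that particle. SF3A and SF3B belong to the U2 snRNP and hold the branch point, and PRPF proteins act mainly in the U4/U6.U5 particle and in activation of the assembled spliceosome. SR proteins and hnRNPs bind exons and introns and bias which splice sites are used, often in opposite directions. The core machinery is expressed in every nucleated cell of the kidney, and its RNA is not tied to a single segment of the nephron.

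The rats were of the strain MCW SS, whose blood pressure rises on a high-salt diet. In the group labelled HS_DT, 3 rats were given GapmeRs against Dnmt3a and Tet3 into the kidney, 2 mg/kg each, and ate a diet with 4% NaCl for 7 days. A GapmeR is an antisense oligonucleotide that recruits cleavage of its target RNA, Dnmt3a is a de novo DNA methyltransferase and Tet3 oxidises methylated cytosine. In the group labelled HS_SCR, 3 rats were given a scrambled GapmeR at 4 mg/kg and ate the same diet for 7 days. The 3 rats of the group labelled 0.4% salt went through the same surgery and were on a diet with 0.4% NaCl, and their tissue was taken just before GapmeR and high salt would have started. No group received high salt or a GapmeR alone, so diet, oligonucleotide and the 7 days cannot be told apart in either comparison with 0.4% salt. Each library came from 1 rat, and only a single outer medulla sample of each rat was measured, so p-values refer to the spread between rats. That spread was estimated within all 3 groups together, with 3 rats each, so every comparison also rests on the group it leaves out.

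The targeted transcripts did not have lower means in HS_DT than in HS_SCR, so groups are named by their labels. Dnmt3a averaged 9.999 ± 1.17 FPKM in HS_DT rats, 7.695 ± 2.33 FPKM in HS_SCR rats and 12.8 ± 0.624 FPKM in 0.4% salt rats (SD, n = 3 each). Tet3 averaged 8.03 ± 0.465 FPKM in HS_DT rats, 6.24 ± 1.71 FPKM in HS_SCR rats and 9.16 ± 0.612 FPKM in 0.4% salt rats. In HS_SCR against 0.4% salt Dnmt3a fell (-0.70 ± 0.18 (SE), limma adjusted p = 0.0367) and Tet3 did not pass (-0.51 ± 0.15 (SE), limma adjusted p = 0.0599). Neither passed in HS_DT against HS_SCR, at 0.37 ± 0.18 (SE), limma adjusted p = 0.303 for Dnmt3a and 0.34 ± 0.15 (SE), limma adjusted p = 0.271 for Tet3. No read counts are at hand. Relative depth, estimated from the lowest values with 0.4% salt replicate 1 set to 1, was between 0.768 (HS_SCR replicate 2) and 1.36 (HS_DT replicate 2). On the second principal component, with 22.1% of the variance, HS_SCR replicate 3 was at -51.5 and the other 8 libraries were between -2.34 and 24. Its share of mitochondrially encoded RNA was the lowest, at 20.6% of summed FPKM against up to 31.9%. The numbers of the rats form a low and a high run, here called the lower and the higher number series, and no label says why: replicates 1 and 2 of HS_DT and of HS_SCR are in the lower series, and the other 5 rats, among them all 0.4% salt rats, are in the higher. Counts of called members, and the changes of some genes, are therefore also given without HS_SCR replicate 3. Markers of the outer medulla were present, with thick ascending limb markers (12 genes) summing to 2639 to 3603 FPKM in HS_DT rats, 1395 to 3367 FPKM in HS_SCR rats and 2954 to 4575 FPKM in 0.4% salt rats.

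Splicing genes were abundant. The median of the tested members' mean levels was 42.9 FPKM, the 85th percentile of all tested loci, whose median was 10.99 FPKM, and 66 of 71 members reached 10 FPKM. Together the members made up 0.501% to 0.592% of summed FPKM in every library. The hnRNPs, which coat nascent transcripts, had the highest family median (84.2 FPKM), followed by Sm and snRNP-specific proteins (50.9 FPKM), SF3A and SF3B (36.7 FPKM), LSm proteins (35.9 FPKM) and SR proteins (35.3 FPKM), with PRPF proteins lowest (18.5 FPKM). Over the 9 libraries the most abundant members were Hnrnpa2b1 (303 ± 35.5 FPKM, SD over 9), Hnrnpk (227 ± 11.5 FPKM) and Hnrnpa1 (206 ± 19.7 FPKM). The libraries of Hnrnpk and Hnrnpa1 overlapped, as did those of Hnrnpa1 and the next members, Snrpel1 (189 ± 42.8 FPKM) and Snrpg (184 ± 40.8 FPKM), so the order from Hnrnpk down to Snrpg is within the spread. At the low end stood Lsm11, a protein of the U7 particle that matures histone transcripts, at 1.96 FPKM, and Srsf12, at 3.69 FPKM.

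**Figure D1:**
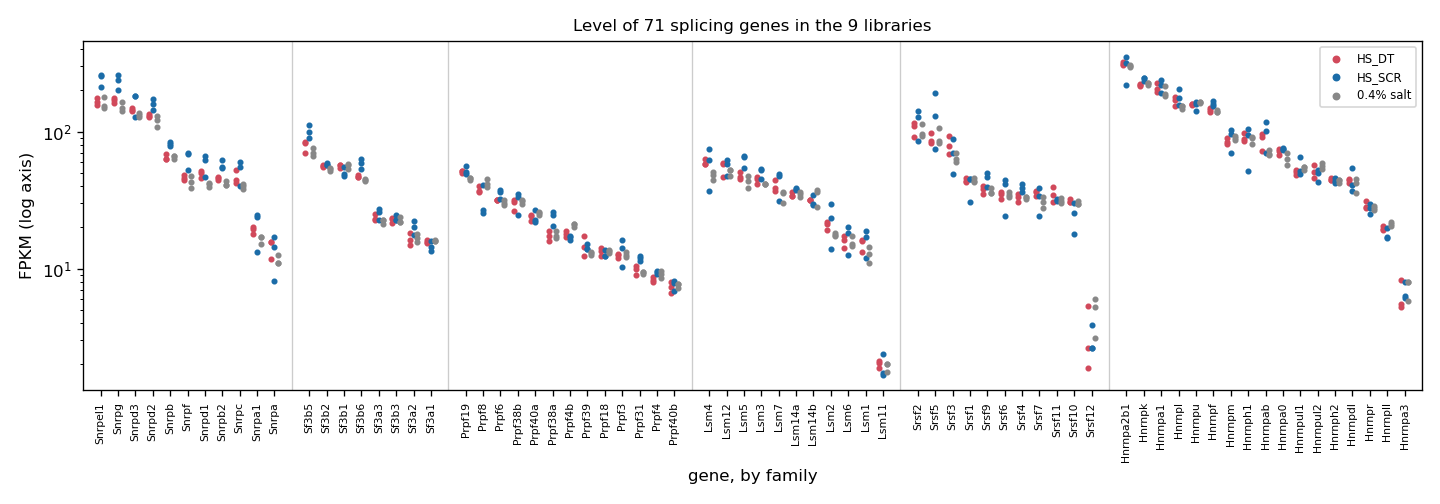
Level of each of the 71 tested splicing genes (FPKM, log axis) in the 9 libraries, ordered within the 6 families by mean level. Each point is 1 rat, with HS_DT, HS_SCR and 0.4% salt drawn left to right; hnRNPs hold the highest levels and Lsm11 the lowest.

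Against 0.4% salt, the libraries labelled HS_SCR held more RNA of the snRNP core. Of 71 tested members, 12 rose and 1 fell, and 58 did not pass (limma, adjusted p under 0.05 over all 14338 tested loci). That is 16.9% of members risen, where 8.2% of all tested loci rose, and 1.41% fallen, where 4.88% of all tested loci fell. The risen genes were 7 Sm and snRNP-specific proteins (Snrpg, Snrpel1, Snrpf, Snrpd1, Snrpb2, Snrpd2 and Snrpb), Sf3b5 and Sf3b6 of SF3B, Lsm5, Prpf38a and Prpf31, by 1.24-fold to 1.54-fold. Among them, Snrpel1 is a pseudogene in RefSeq. The gene that fell was the kinase Prpf4b, at 0.82 times its 0.4% salt level. No SR protein of 11 and no hnRNP of 17 passed, and with so few genes 0 is near the shares of all loci. Outside the Sm and snRNP-specific proteins 5 of 60 members rose (8.33%), a share near that of all loci. Means were higher in 51 members (52.2% of all loci) and lower in 20, with a median log2 change of 0.13 against 0.02 over all tested loci. At an unadjusted p under 0.05 stood 23 of 71 members, where 32% of all loci did. In 25 members every HS_SCR rat lay above every 0.4% salt rat (19.1% of all loci), and in 4 every HS_SCR rat lay below (14.5% of all loci). Fold changes refer to FPKM + 1. In bulk tissue, fewer cells of a type and less RNA per cell cannot be told apart.

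**Figure D2:**
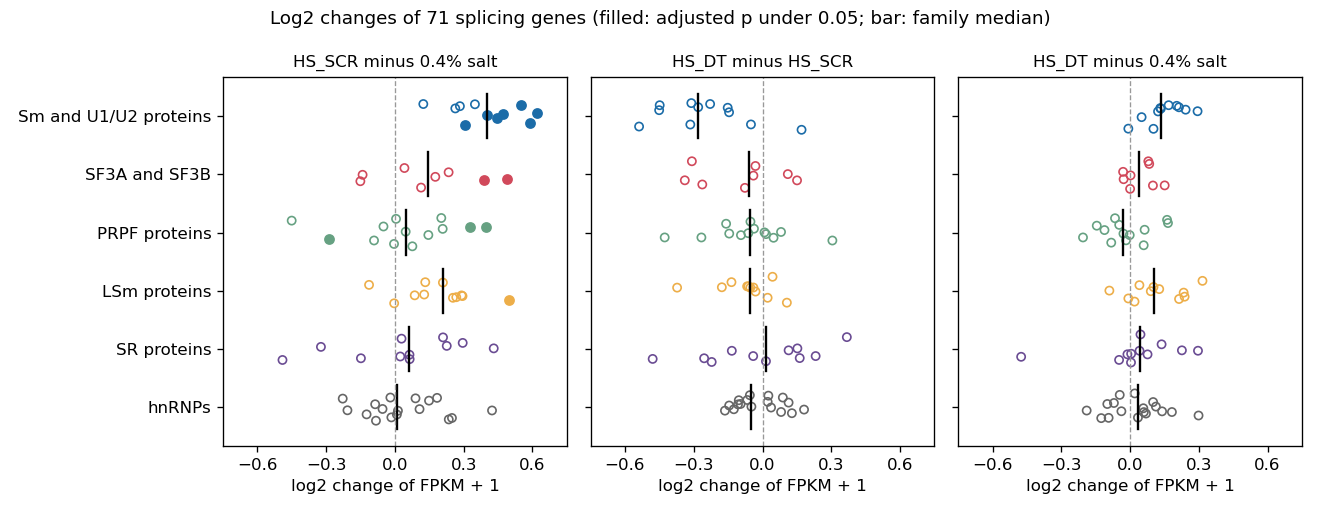
Log2 change of FPKM + 1 of the 71 tested splicing genes by family in the 3 comparisons; each circle is 1 gene, filled where the limma adjusted p is under 0.05, and the black bar is the family median. In HS_SCR minus 0.4% salt all 11 Sm and snRNP-specific proteins lie above 0, with a median of 0.40, while the hnRNPs have a median of 0.01.

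Promoter sequences are shown for called genes, 1 for each family with a risen gene: the one with the largest change. They run from 250 bases before to 50 bases after the annotated start in RefSeq, build GRCr8, and lie for Snrpg at chr4:120369461-120369760 on the plus strand, Sf3b5 at chr1:9176939-9177238 on the plus strand, Prpf38a at chr5:128552816-128553115 on the minus strand and Lsm5 at chr4:87284427-87284726 on the minus strand. Capitals mark the CCAAT box and the core bound by ETS factors (CCGGAA), searched on both strands, so that ATTGG is a CCAAT box and TTCCGG an ETS core read from the other strand.
Snrpg: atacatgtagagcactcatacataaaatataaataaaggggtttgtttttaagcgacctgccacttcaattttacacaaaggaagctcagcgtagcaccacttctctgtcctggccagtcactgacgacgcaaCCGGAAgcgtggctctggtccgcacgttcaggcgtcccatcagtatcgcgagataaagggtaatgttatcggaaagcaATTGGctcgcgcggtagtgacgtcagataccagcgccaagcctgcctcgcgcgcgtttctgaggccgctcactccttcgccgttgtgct
Sf3b5: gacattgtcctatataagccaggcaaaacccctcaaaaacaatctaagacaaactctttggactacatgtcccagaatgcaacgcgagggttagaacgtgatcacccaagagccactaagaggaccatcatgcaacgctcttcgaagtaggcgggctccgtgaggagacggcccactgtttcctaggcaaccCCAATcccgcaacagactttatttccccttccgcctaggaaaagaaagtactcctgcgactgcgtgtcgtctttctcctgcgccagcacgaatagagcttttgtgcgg
Prpf38a: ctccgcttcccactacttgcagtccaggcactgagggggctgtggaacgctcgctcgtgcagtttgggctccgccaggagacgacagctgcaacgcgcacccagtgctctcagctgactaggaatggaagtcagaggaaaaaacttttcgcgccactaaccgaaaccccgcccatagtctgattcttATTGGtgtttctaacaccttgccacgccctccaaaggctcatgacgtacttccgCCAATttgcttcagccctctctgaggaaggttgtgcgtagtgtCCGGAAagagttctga
Lsm5: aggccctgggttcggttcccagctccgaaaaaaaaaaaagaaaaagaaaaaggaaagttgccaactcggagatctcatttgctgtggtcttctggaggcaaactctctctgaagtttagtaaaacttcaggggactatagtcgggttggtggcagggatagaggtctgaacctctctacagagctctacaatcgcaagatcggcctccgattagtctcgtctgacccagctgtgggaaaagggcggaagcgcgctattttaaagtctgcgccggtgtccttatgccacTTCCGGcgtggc
The Snrpg promoter holds 1 CCAAT box and 1 ETS core, that of Sf3b5 1 CCAAT box, that of Prpf38a 2 CCAAT boxes and 1 ETS core, and that of Lsm5 1 ETS core. Of the 75 members, 66 were matched by symbol, with 75 promoters. CCAAT occurred in 57.3% of the members' promoters, against 37.1% of the promoters of tested loci with a single symbol (n = 9858) and 37.5% of all 33469 promoters. CCGGAA occurred in 42.7% of members' promoters, against 26.4% and 15%. Among the 11 matched promoters of risen genes, 8 held CCGGAA and 6 held CCAAT. The GC box GGGCGG was found in 64% of members' promoters and in 60.6% of those of tested loci, and TATAAA in 10.7% and 6.79%. Matches are letters in a window of 300 bases and were not tested as sites.

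The Sm ring is the shared core of the U1, U2, U4 and U5 particles, and its 7 positions are filled by SmB, SmD1, SmD2, SmD3, SmE, SmF and SmG. All 11 tested members of this family had a higher mean in HS_SCR than in 0.4% salt, 7 rose, and the median log2 change was 0.40. Snrpg, which encodes SmG (chr4:182738511-182746098, rn5), stood at 175, 162 and 171 FPKM in HS_DT rats, 260.4, 237 and 201 FPKM in HS_SCR rats and 163, 140.4 and 149 FPKM in 0.4% salt rats. Every HS_SCR rat lay above the other 6 rats, and the HS_DT and 0.4% salt ranges met. Its log2 change in HS_SCR against 0.4% salt was 0.62 ± 0.11 (SE), limma adjusted p = 0.0121, which is 1.54-fold. Snrpel1 (chr8:128569281-128569560) is listed by RefSeq as a pseudogene with Snrpe, the SmE gene, among its synonyms, and reads may be shared between such copies. It stood at 164, 176 and 157 FPKM in HS_DT rats, 260.4, 210.3 and 254 FPKM in HS_SCR rats and 153, 149 and 178 FPKM in 0.4% salt rats. HS_SCR rats again lay above all others, including replicate 3, and the change was 0.59 ± 0.11 (SE), limma adjusted p = 0.01504. Snrpf, encoding SmF (chr7:34543252-34549956), stood at 44.4, 46.02 and 47.8 FPKM in HS_DT rats, 69.8, 68.7 and 52.7 FPKM in HS_SCR rats and 42.9, 38.8 and 47.2 FPKM in 0.4% salt rats. Its change of 0.55 ± 0.12 (SE), limma adjusted p = 0.0246 was set by HS_SCR replicates 1 and 2 more than by replicate 3, which lay between them and the 0.4% salt rats.

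The remaining ring genes and the U1 and U2 proteins rose less or did not pass. Snrpd1 (SmD1) stood at 45.96, 51.7 and 49.5 FPKM in HS_DT rats, 66.6, 61.9 and 46.3 FPKM in HS_SCR rats and 41.7, 39.7 and 42.5 FPKM in 0.4% salt rats, and HS_SCR replicate 3 lay within the HS_DT range (HS_SCR minus 0.4% salt 0.47 ± 0.13 (SE), limma adjusted p = 0.0469). Snrpd2 (SmD2) stood at 131, 128 and 133 FPKM in HS_DT rats, 173, 160.0 and 144 FPKM in HS_SCR rats and 129.5, 109 and 122 FPKM in 0.4% salt rats. HS_SCR rats lay above all others, with a change of 0.40 ± 0.09 (SE), limma adjusted p = 0.0298. Snrpb, which encodes SmB, stood at 68.7, 63.1 and 63.1 FPKM in HS_DT rats, 83.7, 81.2 and 78.2 FPKM in HS_SCR rats and 66.8, 62.8 and 66.2 FPKM in 0.4% salt rats. HS_SCR rats lay above all others and close together, and the change was 0.31 ± 0.07 (SE), limma adjusted p = 0.0274. Snrpb2 encodes the U2B'' protein, which binds a stem-loop of U2 RNA, and stood at 46.9, 45.95 and 44.7 FPKM in HS_DT rats, 54.6, 54.7 and 62.4 FPKM in HS_SCR rats and 43.7, 40.6 and 40.9 FPKM in 0.4% salt rats. In Snrpb2 the highest library was HS_SCR replicate 3, and the change was 0.44 ± 0.08 (SE), limma adjusted p = 0.0123. Snrpd3 (SmD3), the U1 proteins Snrpa and Snrpc and the U2 protein Snrpa1 did not pass, with log2 changes from 0.12 to 0.35. HS_SCR replicate 3 was the lowest of all 9 libraries in Snrpd3, Snrpa and Snrpa1. Without this library their log2 changes were 0.46, 0.42 and 0.53, in this order. RefSeq names further copies of Snrpg (9), Snrpd2 (4), Snrpf (2), Snrpb (2), Snrpb2 (1) and Snrpd1 (1), and how fragments were shared between copies is not stated. Snrpn, the close relative of Snrpb used in brain, has no row under the rule and is not analysed here.

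The 6 ring genes with a row of their own spanned a similar range of levels in every library. Snrpg was the most abundant in all 9, and its level was 3.51 to 4.35 times that of the least abundant, Snrpf or Snrpd1. Proportions of the genes between varied more. Snrpd3 and Snrpg stood at 127 and 201 FPKM in HS_SCR replicate 3, and at 129 and 140 FPKM in 0.4% salt replicate 2. Their summed level was 609, 593 and 614 FPKM in HS_DT rats, 837, 791 and 650 FPKM in HS_SCR rats and 581, 519 and 560 FPKM in 0.4% salt rats. The HS_SCR sums lay above all others, with replicate 3 nearest to HS_DT.

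In the SF3A and SF3B complexes, 2 of 8 members rose (8.2% of all loci), and both encode small subunits of SF3B. Sf3b5 (chr1:8736113-8740282), a small SF3B protein, stood at 84.1, 82.6 and 69.8 FPKM in HS_DT rats, 112, 99.3 and 89.2 FPKM in HS_SCR rats and 75.3, 70.2 and 66.7 FPKM in 0.4% salt rats. The HS_SCR range lay above the others, and the change was 0.49 ± 0.11 (SE), limma adjusted p = 0.0256. Sf3b6 (chr6:39886848-39895339), known as p14, lies against the branch point adenosine in the U2 particle, and stood at 46.2, 47.8 and 46.4 FPKM in HS_DT rats, 59.01, 62.9 and 53.1 FPKM in HS_SCR rats and 44.95, 43.7 and 44.1 FPKM in 0.4% salt rats. Its HS_DT and 0.4% salt libraries were tightly grouped below every HS_SCR rat, with a change of 0.39 ± 0.08 (SE), limma adjusted p = 0.0175. The large scaffold subunit Sf3b1 did not pass and had a lower mean, at 54.3, 57.2 and 56.9 FPKM in HS_DT rats, 49.04, 47.3 and 55.4 FPKM in HS_SCR rats and 57.6, 53.7 and 57.2 FPKM in 0.4% salt rats. HS_SCR replicates 1 and 2 were its 2 lowest libraries, and the change was -0.15 ± 0.08 (SE), limma adjusted p = 0.227. The other 5 subunits ran from -0.14 for Sf3a1 to 0.23 for Sf3a2 without passing.

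Among the 13 PRPF proteins 2 rose (8.2% of all loci) and 1 fell (4.88% of all loci), 10 did not pass, and the median was 0.05. Prpf38a (chr5:132015345-132027043), which joins the spliceosome shortly before its activation, stood at 18.7, 15.9 and 17.3 FPKM in HS_DT rats, 24.5, 25.96 and 20.6 FPKM in HS_SCR rats and 18.8, 16.8 and 17.4 FPKM in 0.4% salt rats. HS_SCR rats lay above all others, with a change of 0.40 ± 0.11 (SE), limma adjusted p = 0.0434. Prpf31 (chr1:63143067-63164595) encodes a protein of the U4/U6.U5 particle and is mutated in a human retinal degeneration. It stood at 9.87, 8.95 and 10.5 FPKM in HS_DT rats, 12.3, 12.02 and 11.4 FPKM in HS_SCR rats and 9.12, 9.39 and 9.42 FPKM in 0.4% salt rats. Every HS_SCR rat lay above the other 6, and the change was 0.33 ± 0.08 (SE), limma adjusted p = 0.0361. This locus overlaps that of Tfpt in the table, and the strand setting of the counting is not stated. Prpf4b (chr17:32580295-32615203), a kinase that phosphorylates proteins of the U4/U6.U5 particle, went the other way. It stood at 17.1, 18.7 and 17.8 FPKM in HS_DT rats, 16.2, 16.96 and 17.4 FPKM in HS_SCR rats and 20.1, 21.1 and 21.1 FPKM in 0.4% salt rats. All 0.4% salt rats lay above the 6 rats on high salt, and the change was -0.29 ± 0.07 (SE), limma adjusted p = 0.0351. Prpf8, the largest protein of the spliceosome core and the partner of U5 RNA at the active site, had the lowest value of the family without passing. It stood at 36.2, 37.1 and 40.05 FPKM in HS_DT rats, 26.8, 25.5 and 40.9 FPKM in HS_SCR rats and 41.5, 45.2 and 39.2 FPKM in 0.4% salt rats. HS_SCR replicates 1 and 2 were far below the other 7 libraries and replicate 3 was among the higher ones (HS_SCR minus 0.4% salt -0.45 ± 0.16 (SE), limma adjusted p = 0.0994). The most abundant PRPF gene, Prpf19, encodes the ubiquitin ligase that leads the complex named after it. It averaged 52.2 ± 3.75 FPKM in HS_SCR rats and 45.2 ± 0.944 FPKM in 0.4% salt rats (SD, n = 3 each). The ranges did not overlap, but the change of 0.20 ± 0.07 (SE), limma adjusted p = 0.0993 did not pass.

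Of 11 LSm proteins 1 rose (9.09%), a share near the 8.2% of all loci, and the family median was 0.21. Lsm5 (chr4:151668264-151671481) is a shared subunit of the ring on U6 RNA and of the cytoplasmic ring that acts in the decay of messages. It stood at 50.8, 44.7 and 46.6 FPKM in HS_DT rats, 64.7, 66.6 and 54.1 FPKM in HS_SCR rats and 47.5, 43.8 and 38.9 FPKM in 0.4% salt rats. The HS_SCR range lay above the other groups, and the change was 0.50 ± 0.11 (SE), limma adjusted p = 0.02397. Its ring partners Lsm2, Lsm3, Lsm4, Lsm6 and Lsm7 all had higher means, from 0.09 to 0.30 on the log2 scale, and none passed. Lsm4, the most abundant, was at 63.02, 58.4 and 57.6 FPKM in HS_DT rats, 74.4, 61.9 and 36.7 FPKM in HS_SCR rats and 50.5, 48.5 and 44.4 FPKM in 0.4% salt rats. HS_SCR replicate 1 was its highest library and HS_SCR replicate 3 its lowest, so the spread within HS_SCR was larger than the difference between groups (HS_SCR minus 0.4% salt 0.21 ± 0.22 (SE), limma adjusted p = 0.537). Lsm14b (-0.11) and Lsm11 had values at or below 0 and did not pass.

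**Figure D3:**
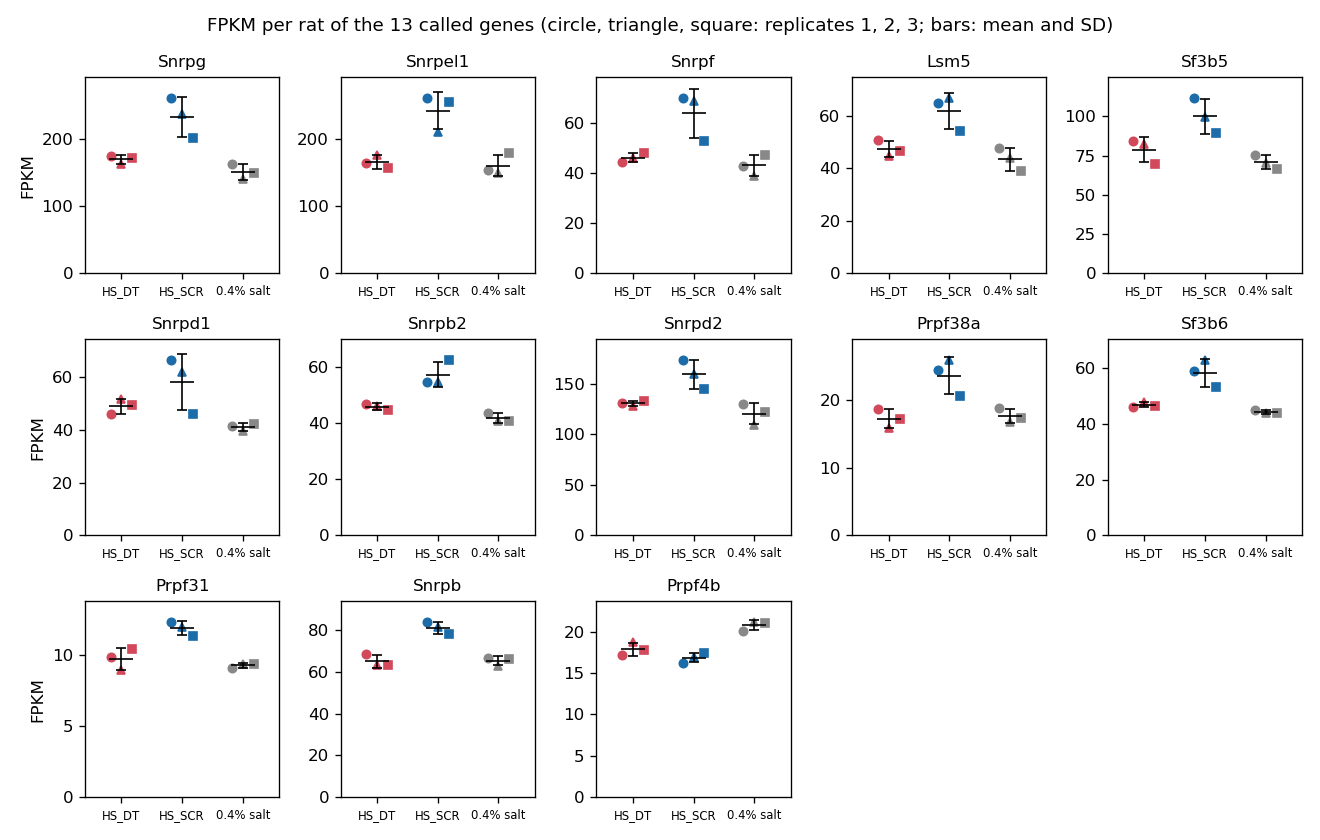
FPKM of the 13 splicing genes that limma called in HS_SCR minus 0.4% salt, with HS_DT, HS_SCR and 0.4% salt left to right; circle, triangle and square are replicates 1, 2 and 3, and bars give the mean and SD of 3 rats. In 12 genes every HS_SCR rat lies above every 0.4% salt rat, and in Prpf4b every HS_SCR rat lies below.

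None of the 11 SR proteins passed in HS_SCR against 0.4% salt by limma, where 8.2% of all loci rose and 4.88% fell. An unadjusted p under 0.05 was found in 2, against 32% of all loci, and the median was 0.06. Srsf2, a largely nuclear SR protein and the most abundant of the family, stood at 115, 111 and 91.8 FPKM in HS_DT rats, 127, 142 and 85.1 FPKM in HS_SCR rats and 95.8, 92.1 and 113 FPKM in 0.4% salt rats. HS_SCR replicate 3 was the lowest of the 9 libraries and HS_SCR replicate 2 the highest, so no direction could be read (HS_SCR minus 0.4% salt 0.21 ± 0.19 (SE), limma adjusted p = 0.468). Srsf9 had the smallest p. It stood at 40.3, 37.99 and 34.96 FPKM in HS_DT rats, 46.7, 50.1 and 39.4 FPKM in HS_SCR rats and 38.5, 35.6 and 35.7 FPKM in 0.4% salt rats, with HS_SCR above 0.4% salt in every rat, and the change of 0.30 ± 0.10 (SE), limma adjusted p = 0.0884 did not pass. Srsf5, whose rat gene is known for its induction by insulin in liver cells, was at 97.3, 82.4 and 85.3 FPKM in HS_DT rats, 74.5, 130.2 and 193 FPKM in HS_SCR rats and 83.1, 85.9 and 106 FPKM in 0.4% salt rats. HS_SCR replicate 1 was the lowest library of all and HS_SCR replicate 3 the highest, and the change of 0.43 ± 0.29 (SE), limma adjusted p = 0.337 did not pass. Srsf10, which is known to act as a repressor of splicing when dephosphorylated, was at 30.6, 30.9 and 32.1 FPKM in HS_DT rats, 30.02, 25.6 and 17.8 FPKM in HS_SCR rats and 29.8, 29.5 and 31.3 FPKM in 0.4% salt rats. HS_SCR replicate 3 had the lowest value, with replicates 1 and 2 nearer the other groups (HS_SCR minus 0.4% salt -0.32 ± 0.16 (SE), limma adjusted p = 0.2003). Without HS_SCR replicate 3 the change was -0.12 for Srsf10 and 0.11 for Srsf5. Srsf5 and Srsf10 were chosen after their values were seen.

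None of the 17 tested hnRNPs passed either (limma, with 8.2% of all loci risen and 4.88% fallen). In 3 the unadjusted p was under 0.05 (32% of all loci), and 9 means were higher and 8 lower. Hnrnpa1 and Hnrnpa2b1, close relatives that repress splice sites and carry RNA, had mean changes of opposite sign, with intervals that included 0. Without HS_SCR replicate 3 both changes were above 0, at 0.23 for Hnrnpa1 and 0.15 for Hnrnpa2b1, and neither passed. Hnrnpa1 stood at 195, 203 and 227 FPKM in HS_DT rats, 239, 218 and 191 FPKM in HS_SCR rats and 187, 181 and 215 FPKM in 0.4% salt rats. Its groups overlapped (HS_SCR minus 0.4% salt 0.15 ± 0.11 (SE), limma adjusted p = 0.389; 95% interval -0.11 to 0.40). RefSeq names 51 further copies of Hnrnpa1 in the rat genome, so its level may hold shared reads. Hnrnpa2b1 stood at 319.7, 312 and 308 FPKM in HS_DT rats, 349.6, 318 and 218 FPKM in HS_SCR rats and 305, 297 and 299.6 FPKM in 0.4% salt rats. HS_SCR replicate 3 was far below the other 8 libraries, and the change was -0.05 ± 0.16 (SE), limma adjusted p = 0.837 (95% interval -0.41 to 0.30). Hnrnpa0 had the smallest p of the family. It averaged 74.9 ± 1.46 FPKM in HS_SCR rats and 63.04 ± 6.196 FPKM in 0.4% salt rats (SD, n = 3 each). The ranges did not overlap, and the change of 0.25 ± 0.09 (SE), limma adjusted p = 0.0876 did not pass. Hnrnph1, chosen after its values were seen, was at 97.9, 88.8 and 85.7 FPKM in HS_DT rats, 104, 94.5 and 51.5 FPKM in HS_SCR rats and 90.6, 81.7 and 89.2 FPKM in 0.4% salt rats. Again HS_SCR replicate 3 alone was low, while the other 8 libraries lay between 81.7 and 104 FPKM. The change of Hnrnph1 in HS_SCR minus 0.4% salt was -0.12 ± 0.23 (SE), limma adjusted p = 0.738. Without HS_SCR replicate 3 it was 0.19.

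HS_SCR replicate 3 differed from its group in which splicing genes were high. It was the lowest of the 9 libraries in 18 of 71 members (24.1% of all tested loci) and the highest in 11 (23.1% of all tested loci). Among SR proteins it was the lowest in 6 of 11, with a median deviation of -0.32 on the log2 scale from the gene means. HS_SCR replicate 1 was the highest library in 31 of 71 members, 9 of them among the 11 Sm and snRNP-specific proteins. The share of all tested loci was not computed for replicate 1, so this count cannot be read as particular to splicing genes. Without HS_SCR replicate 3, 30 members rose and 4 fell in HS_SCR against 0.4% salt, where 20.5% of all loci rose and 15.7% fell. The risen set then held 10 Sm and snRNP-specific proteins, 6 LSm proteins, 5 PRPF proteins, 3 of SF3A and SF3B, and also 4 SR proteins (Srsf2, Srsf4, Srsf6 and Srsf9) and 2 hnRNPs (Hnrnpab and Hnrnpl). Those that fell were Prpf4b, Prpf8, Sf3a1 and Sf3b1. In that fit every HS_SCR rat is of the lower number series and every 0.4% salt rat of the higher, so group and series cannot be told apart.

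**Figure D4:**
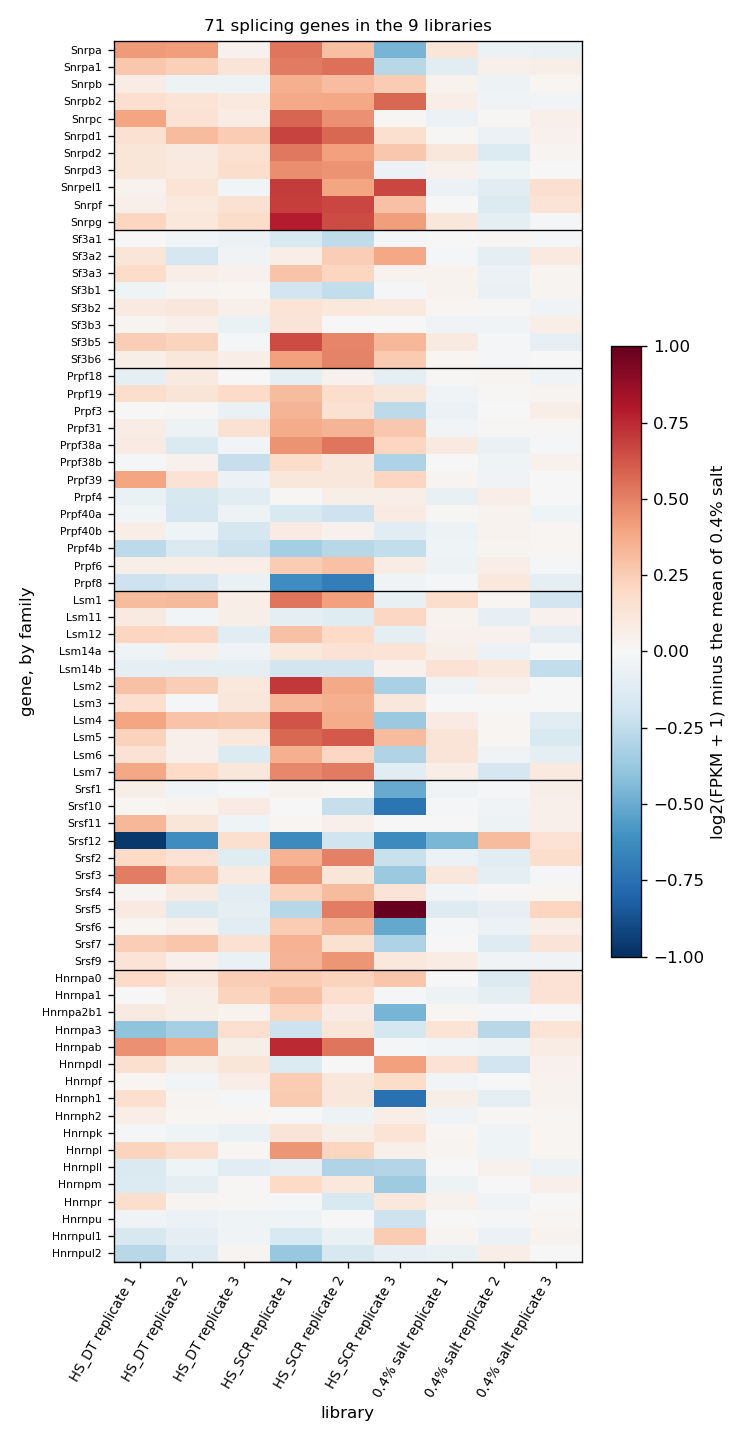
Log2(FPKM + 1) of the 71 tested splicing genes in each library minus the gene's mean in 0.4% salt, with HS_DT, HS_SCR and 0.4% salt left to right; red is higher, blue lower, and black lines part the families. HS_SCR replicates 1 and 2 are red across most Sm and snRNP-specific and LSm rows, and HS_SCR replicate 3 is blue in several SR protein rows.

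Within the higher number series HS_SCR has 1 rat, replicate 3, beside the 3 rats of 0.4% salt. Its log2 difference from their mean had a median of 0.01 over the 71 members, with 37 above 0 and 34 below. It lay above each 0.4% salt rat in 34 of 71 members (47.9%) and in 39.8% of all tested loci. Families differed. Over the 11 Sm and snRNP-specific proteins the median difference was 0.26, with 8 above 0 and 3 below, and replicate 3 lay above each 0.4% salt rat in 7 (63.6%). Over the 11 SR proteins the median was -0.31, with 4 above 0 and 7 below, and it lay above each in 3 (27.3%). These values rest on 1 HS_SCR rat. When the fit held the number series as a further term, 3 of 71 members rose (limma, adjusted p under 0.05; 5.88% of all loci) and the median log2 change was 0.05. The number of risen members also depended on single libraries. It was 30 without HS_SCR replicate 3 (20.5% of all loci), 7 without HS_DT replicate 2 (5.05%), 5 without HS_SCR replicate 1 (6.93%) and 3 without HS_SCR replicate 2 (3.91%). Leaving out a 0.4% salt rat gave 2 without replicate 1 (2.29%), 4 without replicate 3 (4.32%) and 0 without replicate 2 (1.8% of all loci). Counts of 2 to 5 of 71 are near or at these shares. In the last of these fits, 17 of 71 members had an unadjusted p under 0.05. Over 23 alternative settings Snrpg had log2 changes of 0.47 to 0.72 and passed in 19. Others fell further below their reported change at their lowest. With the proximal tubule score described below as a covariate Snrpel1 had 0.32 in place of 0.59 and Sf3b5 0.30 in place of 0.49. With the relation to locus width removed Snrpb had 0.18 in place of 0.31, Snrpd2 0.22 in place of 0.40 and Lsm5 0.32 in place of 0.50. Snrpb2 passed in 17 of the settings, Snrpel1 in 16, Sf3b6 and Snrpf in 15, and Snrpd1 and Prpf38a in 7.

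Changes in HS_SCR were higher at short loci than at long ones. Locus width is the span of the gene in the table, introns included. Across the 71 members, width and log2 change in HS_SCR against 0.4% salt had a Spearman rho of -0.571, and over all 14338 tested loci of -0.256. Genes are not independent replicates, and all values come from the same 6 libraries. Of 26 members under 10 kb 9 rose, with a median of 0.26, and of 45 members of 10 kb or more 3 rose and 1 fell, with a median of 0.06. Among all tested loci the same split gave 13.8% and 6.40% risen. All 6 Sm and snRNP-specific genes under 10 kb rose. After removal of the relation to locus width within each library, 5 members rose, Snrpg, Snrpf, Sf3b5, Sf3b6 and Lsm5 (6.39% of all loci), and Prpf4b fell (4.82% of all loci). The part of locus width in the calls was not tested further.

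**Figure D5:**
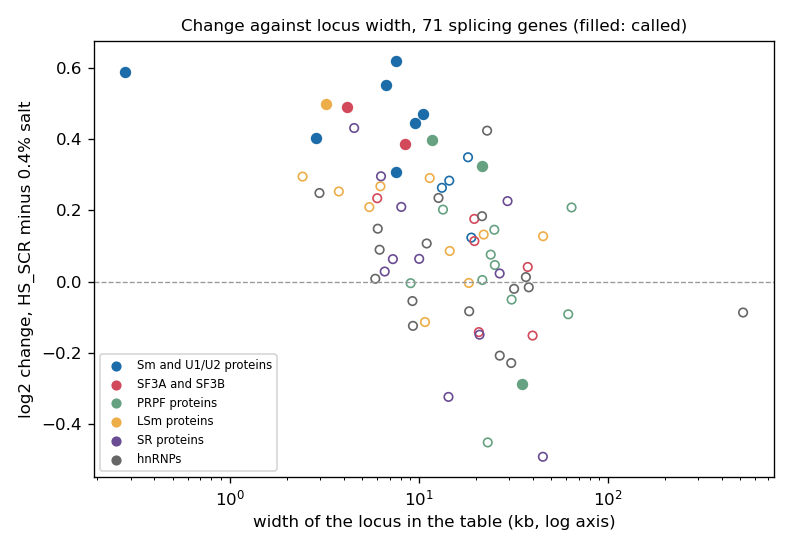
Log2 change in HS_SCR minus 0.4% salt of the 71 tested splicing genes against the width of the locus (kb, log axis), coloured by family and filled where limma called the gene. Of 26 genes under 10 kb 9 rose, and of 45 wider genes 3 rose and 1 fell.

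Cell type markers moved with the same comparison. Proximal tubule markers (18 of 20 listed found, none at 0 in every library) summed to 1632 to 4482 FPKM in HS_DT rats, 415 to 2141 FPKM in HS_SCR rats and 3171 to 6770 FPKM in 0.4% salt rats, and 8 of 16 tested fell in HS_SCR. Macrophage markers (11 of 12 found) summed to 2576 to 2883 FPKM in HS_DT rats, 2823 to 3934 FPKM in HS_SCR rats and 1580 to 1811 FPKM in 0.4% salt rats, and 8 of 11 rose. Erythroid markers (5 of 7 found) summed to 1900.5 to 2601 FPKM in HS_DT rats, 1409.5 to 8797 FPKM in HS_SCR rats and 584 to 855 FPKM in 0.4% salt rats, and 4 of 5 rose. Of thick ascending limb markers 4 of 12 fell and 1 rose, and of principal cell markers 0 of 9 passed, with sums of 836 to 1399 FPKM in HS_DT rats, 1232 to 1658 FPKM in HS_SCR rats and 705 to 1309 FPKM in 0.4% salt rats. Lymphocyte markers, with Cd79a at 0 in every library, summed to 123 to 144 FPKM in HS_DT rats, 89.9 to 142 FPKM in HS_SCR rats and 100.05 to 105 FPKM in 0.4% salt rats, and neural markers to at most 15.4 FPKM in any library. With the proximal tubule score of each library as a covariate, no member passed (7 of 71 had an unadjusted p under 0.05) and no locus of 14338 did (1981 had). The score was 2.51 to 4.43 in HS_SCR rats and 5.32 to 6.62 in 0.4% salt rats, without overlap. This fit therefore cannot tell the score from the group, and the loss of calls is not read further. Log2 changes moved both ways in it, as in Snrpel1 (0.32 in place of 0.59) and Snrpf (0.61 in place of 0.55). The part of cell composition in the splicing gene changes was not tested.

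Other genes of the pathway were read from lists that share no name with the members. Of 47 tested proteins of snRNPs and the spliceosome, 7 rose (8.2% of all loci) and none fell (4.88% of all loci) in HS_SCR against 0.4% salt, with a median of 0.14. Syf2, a protein of the activated spliceosome, stood at 69.9, 71.1 and 74.4 FPKM in HS_DT rats, 91.2, 102 and 103 FPKM in HS_SCR rats and 72.5, 72.03 and 68.9 FPKM in 0.4% salt rats. HS_SCR rats lay above all others and the change was 0.46 ± 0.07 (SE), limma adjusted p = 0.00941. U2af1, which reads the AG at the end of the intron, stood at 70.1, 72.6 and 64.4 FPKM in HS_DT rats, 98.95, 93.6 and 74.9 FPKM in HS_SCR rats and 64.2, 62.7 and 67.5 FPKM in 0.4% salt rats. It also had all HS_SCR rats highest, at 0.44 ± 0.11 (SE), limma adjusted p = 0.0345, and Bcas2, a partner of Prpf19 in its complex, changed by 0.43 ± 0.07 (SE), limma adjusted p = 0.0112. Of 4 tested members of the exon junction complex, which marks spliced junctions, 3 rose (8.2% of all loci): Rbm8a (0.47 ± 0.13 (SE), limma adjusted p = 0.0439), Magoh (0.41 ± 0.08 (SE), limma adjusted p = 0.0152) and Eif4a3 (0.29 ± 0.07 (SE), limma adjusted p = 0.0385). Of 12 tested genes of the SMN complex, which loads Sm rings onto small nuclear RNA, 1, Smn1, rose, a share near the 8.2% of all loci, and the median was 0.11. Smn1 stood at 19.6, 19.04 and 18.2 FPKM in HS_DT rats, 25.2, 23.9 and 21.5 FPKM in HS_SCR rats and 16.6, 16.1 and 17.9 FPKM in 0.4% salt rats. The HS_SCR range was the highest, with a change of 0.45 ± 0.08 (SE), limma adjusted p = 0.0149. Of 33 other splicing regulators 1, Rbm38, rose (0.66 ± 0.18 (SE), limma adjusted p = 0.0481), a share below the 8.2% of all loci. The list median was -0.06, and in Rbm38 HS_SCR replicate 3 lay within the HS_DT range. None of 6 tested SR protein kinases passed by limma, and 0 had an unadjusted p under 0.05, where 32% of all loci did. Srpk2 had the smallest p (-0.22 ± 0.10 (SE), limma adjusted p = 0.166). No gene of these 5 lists passed in either comparison of HS_DT by limma, and 0 to 9 genes a list had an unadjusted p under 0.05.

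Between HS_DT and HS_SCR, which ate the same diet, no splicing gene passed. Of 71 members 0 rose (0% of all loci) and 0 fell (0.00697% of all loci, 1 locus) by limma, and 16 had an unadjusted p under 0.05, where 19.1% of all loci did. Means were higher in HS_DT in 25 members (49.7% of all loci) and lower in 46, with a median log2 change of -0.06. In 17 members every HS_DT rat lay below every HS_SCR rat (12.5% of all loci), and in 1, Srsf10, above (9.1% of all loci). The genes with the smallest p of their families are given with others called in the previous comparison. For Snrpel1 the change was -0.54 ± 0.11 (SE), limma adjusted p = 0.0692, for Sf3b6 -0.31 ± 0.08 (SE), limma adjusted p = 0.0986, for Prpf38a -0.43 ± 0.11 (SE), limma adjusted p = 0.0978 and for Lsm5 -0.37 ± 0.11 (SE), limma adjusted p = 0.134. Snrpg had -0.45 ± 0.11 (SE), limma adjusted p = 0.0887, and Snrpb -0.31 ± 0.07 (SE), limma adjusted p = 0.0797. In the remaining families, Srsf4 had -0.22 ± 0.08 (SE), limma adjusted p = 0.195 and Hnrnpf -0.16 ± 0.07 (SE), limma adjusted p = 0.251. This comparison and the previous one share the 3 HS_SCR rats, so their values are not independent. Within the lower number series, the HS_DT mean was below the HS_SCR mean in 52 of 71 members (73.2%, against 51.8% of all loci), with a median log2 difference of -0.14. Within the higher series, with 1 rat each, it was below in 38 (53.5%, against 49.8% of all loci), with a median of -0.02. Without HS_SCR replicate 3, 18 members fell in HS_DT against HS_SCR (9.29% of all loci), 9 of them Sm and snRNP-specific proteins, and Prpf8 and Sf3b1 rose (6.75% of all loci). In that fit HS_DT still holds replicate 3 of the higher number series, and HS_SCR holds none.

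Between HS_DT and 0.4% salt no splicing gene passed. Of 71 members 0 rose and 0 fell by limma (0% of all loci in each direction), and 1 had an unadjusted p under 0.05, where 7.49% of all loci did. Means were higher in HS_DT in 46 members (51.4% of all loci) and lower in 25, with a median of 0.06. Without HS_SCR replicate 3 the fit called 0 members here too (0.0418% of all loci risen, 0% fallen). In 14 members every HS_DT rat lay above every 0.4% salt rat (14.2% of all loci), and in 2 below (9.64% of all loci). The member with the smallest p was Prpf4b, at -0.21 ± 0.07 (SE), limma adjusted p = 0.529, and its 95% interval was -0.37 to -0.04. Snrpd1 had the smallest p of its family, at 0.24 ± 0.13 (SE), limma adjusted p = 0.733. Sf3b5 had 0.15 ± 0.11 (SE), limma adjusted p = 0.797, Lsm4 0.32 ± 0.22 (SE), limma adjusted p = 0.7904, Srsf12 -0.48 ± 0.31 (SE), limma adjusted p = 0.772 and Hnrnpa0 0.18 ± 0.09 (SE), limma adjusted p = 0.693. For Snrpg the difference was 0.17 ± 0.11 (SE), limma adjusted p = 0.771, with a 95% interval of -0.08 to 0.41, which leaves room for a change in either direction. Both comparisons with 0.4% salt share its 3 rats.

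Over the 3 groups together, the moderated F test of limma called 5 of 71 members: Snrpb, Snrpb2, Snrpel1, Snrpg and Sf3b6. Of all tested loci 5.61% were called. In each of these 5 genes the HS_SCR mean was the highest of the 3 groups and the HS_SCR range did not overlap that of HS_DT or of 0.4% salt. Snrpg averaged 169 ± 6.68 FPKM in HS_DT rats, 233 ± 29.9 FPKM in HS_SCR rats and 151 ± 11.4 FPKM in 0.4% salt rats (SD, n = 3 each).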

How the data were processed

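RNA of the renal outer medulla was extracted with Trizol and made into libraries on an Illumina NeoPrep system, per the labels. The deposited values are FPKM at 30315 loci, computed by the authors. Per the submitters' processing notes, Trim Galore 0.2.5, Cufflinks 2.2.1 and rn5 were used; aligner, annotation, strand setting and scaling: not given in the sources used here. A column that repeats another at all 30315 loci was not used (1 column).

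The analysis used log2(FPKM + 1) of 14338 loci whose mean reached 1 FPKM, in 1 fit of the 3 groups (limma 3.58.1 in R 4.3.3, variance trend on the mean, 6 residual degrees of freedom, 8.54 after moderation), two-sided, with Benjamini-Hochberg adjustment over all tested loci. A gene was called under an adjusted p of 0.05. Median-ratio factors between libraries were 0.999 to 1.01. The fit was tested on simulated data. Coordinates are those of the table. Promoters and copy names come from RefSeq GRCr8; protein features were not computed.

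The members, the other gene lists and the alternatives were chosen with earlier results of these data known. Genes named are, per family, the most abundant member and, per comparison and direction, up to 3 called members of largest change with ranges that do not overlap, or the smallest p where none was called. Also named are Snrpn, Hnrnpa1, Hnrnpa2b1, Sf3b1, Prpf8 and all called members, and up to 3 genes of each other list. Alternatives were pseudocounts of 0.1 and 0.5, no filter or a minimum mean of 5 FPKM, other scaling, robust moderation, library weights, the 2 groups alone, replicate number as a block, rat number series as a factor, the proximal tubule score (mean log2 level of its markers) as a covariate, the locus width trend removed (lowess span 0.3), and leaving out libraries. The F test under the alternatives was added after seeing the data.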

Additional observations from a re-analysis of the deposited data

How the results depend on the processing

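The 12 rises and the fall of Prpf4b in HS_SCR against 0.4% salt kept their direction under all 23 alternatives, but the number of calls changed. The kept direction was largely fixed in advance. In all of these genes the HS_SCR and 0.4% salt ranges did not overlap, so leaving out libraries could not turn them. Filters, robust moderation, the replicate block and the 2 groups alone leave the log2 change as it was. For HS_SCR minus 0.4% salt, 12 rose and 1 fell, with a median of 0.13. Quantile normalization gave 5, 2 and 0.069 (6.35% of all loci risen, 4.7% fallen) and library weights 24, 2 and 0.19 (16% and 12%). The rat number series as a factor gave 3, 0 and 0.0473 (5.88% and 3.32%). Removal of the width trend gave 5 rises and 0.0642 (6.39%). Under these settings 5 and 3 rises of 71 are near or below the share of all loci. The fit of the 2 groups alone, the proximal tubule score as a covariate, and leaving out both 0.4% salt replicate 2 and HS_DT replicate 3 gave 0 rises and 0 falls. In these fits 18, 7 and 15 members had an unadjusted p under 0.05, as did 3818, 1981 and 3010 of 14338 loci. Of all loci the 2 groups alone called 2.27% risen and 0.976% fallen, and the score and the left-out pair called 0%. Leaving out 1 library gave 0 to 30 rises (1.8% to 20.5% of all loci), 0 to 4 falls (0.621% to 15.7%) and medians of 0.0966 to 0.236. Other rises ran from 9 (no filter, 4.1% of all loci) to 12 (7.87% to 11.2%).

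The F test (5 members) called 1 under quantile normalization (3.59% of all loci), 24 with library weights (27.4%) and 3 with the series (5.43%). It called 0 with the proximal tubule score (0%), 1 without the width trend (4.39%) and 0 without the pair of libraries (0%). Without 1 library it called 0 to 28 (0% to 26.9%). For HS_DT minus HS_SCR (0 rose, 0 fell, median -0.06), library weights gave 1, 13 and -0.12 (4.34% of all loci risen, 6.1% fallen). The series gave 1 fall (Snrpb, with 2.06% of all loci fallen). Leaving out 1 library gave 0 to 2 rises (0% to 6.75% of all loci) and 0 to 18 falls (0% to 9.29%). Medians were then -0.148 to -0.00532. For HS_DT minus 0.4% salt (median 0.06), library weights gave 3 rises (8.22% of all loci, a larger share) and the series a median of -0.0159.

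No label pairs rats by replicate number, and residuals of same-numbered libraries correlated above 0.1 in 5 of 9 pairs, from -0.076 to 0.26. With the replicate number as a block, 9 members rose (7.92% of all loci), 1 fell (5.37%) and the F test called 2 (4.19%).

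The 988 single-gene values are those of the named genes, each in the comparisons for which it was named. Of these, 814 kept direction and side of the threshold. Calls were lost in 135, all among the 13 genes called in HS_SCR minus 0.4% salt. Within the 988, calls were gained in 20, all with library weights or without HS_SCR replicate 3. Outside them, calls were also gained under other settings. In HS_SCR minus 0.4% salt Srsf5 rose and Hnrnpll fell without HS_SCR replicate 1, and Hnrnpu fell under quantile normalization. Snrpb fell in HS_DT minus HS_SCR with the series. The other 19 of the 988 turned, none of them called. In HS_DT minus HS_SCR these were Prpf19 (0.0442 under quantile normalization, 0.00237 without the width trend, -0.0788 to 0.0185 without 1 library), Hnrnpa2b1 (-0.0263 with weights, -0.0902 to 0.2495 without 1 library), Lsm4 (-0.0989 with weights, -0.183 to 0.317 without 1 library) and Srsf2 (-0.352 to 0.0148 without 1 library). In HS_DT minus 0.4% salt they were Hnrnpa2b1 (-0.0266 under quantile normalization, -0.156 with the series), Sf3b5 (-0.0124) and Srsf2 (-0.24) with the series, and Snrpel1 (-0.0485 with the proximal tubule score, -0.001095 to 0.1302 without 1 library). In HS_SCR minus 0.4% salt they were Hnrnpa2b1 (0.0808 with weights, -0.19 to 0.15 without 1 library), Lsm4 (-0.105 with the series, -0.00104 to 0.499 without 1 library) and Srsf2 (-0.106 with the series). The causes were not tested. Depth is unknown, so no counting interval is given, and the spread rests on 3 rats a group.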

Other observations

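Several spliceosome rows stood outside the comparisons. The joint row Lsm10,Stk40, which holds the Lsm10 partner of Lsm11 in the U7 particle together with a kinase gene, averaged 29.8 FPKM, and the joint row HNRNPH3,Hnrnph3 averaged 10.5 FPKM over the 9 libraries. A second row named Lsm6, on chromosome 13, averaged 5.38 FPKM beside the row analysed. Hnrnpc, the gene of a core hnRNP, had means of 0.0664 and 0.0557 FPKM at its 2 rows, on chromosomes 15 and 14, and RefSeq names 7 further copies. How fragments were assigned to rows and copies is not stated, so these means are not read as absence of Hnrnpc RNA.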
